A study of Saccharomyces cerevisiae with 25 samples.

Results

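The 32 genes described here encode aminoacyl-tRNA synthetases, the enzymes that join each amino acid to its tRNA, in budding yeast (Saccharomyces cerevisiae) deprived of phosphate. They were chosen by name: 14 genes whose enzymes work in the mitochondrion, 14 in the cytosol, and 4 (ALA1, GRS1, HTS1 and VAS1) that supply both. All 32 were measured among 6649 named genes and passed the filter on low values among the 5296 genes tested. The strain background is BY4741, and the genotype label gives YFP driven by the PHO84 promoter together with a deletion of VIP1, which encodes an inositol pyrophosphate kinase. All 25 libraries carry this genotype label, and none is labelled as having VIP1. One library was made from cells in high-phosphate medium (0 min) and 24 from cells washed and moved to medium without phosphate, 1 library every 15 min up to 360 min.

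In yeast, the cytosolic synthetases feed translation by cytosolic ribosomes, and a separate, nucleus-encoded set feeds the small translation system inside mitochondria, which makes a few respiratory chain subunits. Some enzymes serve both places from 1 gene, through transcripts or start codons that differ in whether they carry a targeting sequence. When charged tRNA runs short, uncharged tRNA activates the kinase Gcn2, and the transcription factor Gcn4 is then translated, which is known to activate amino acid synthesis genes and some synthetase genes.

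Levels are given as RPM, a gene's reads scaled to a library of 1000000. Depth lay between 413033 reads (345 min) and 4162690 (165 min), with a median of 1417344. Values under 10 reads are blank, which is 24.2 RPM in the shallowest library. Times after the transfer were grouped into an early window (15 to 120 min), a middle window (135 to 240 min) and a late window (255 to 360 min) of 8 libraries each. No time has a replicate, the labels describe a single series of samples, and the error is the scatter around a smooth curve in time, so the p-values below speak of these libraries only. A gene was called when limma's adjusted p was under 0.05 and the log2 change at least 1, and the verbs "rose" and "fell" are kept for called genes. VIP1 itself was listed in all 25 libraries labelled as lacking it, at 10 to 105 reads. Whether those reads come from a part of the gene left in the strain was not tested. RPM are shares of a library, so less RNA per cell and fewer cells with a transcript cannot be told apart. Cytosolic ribosomal protein genes took 33.8% of all reads at 0 min and 4.55 to 5.39% in the late window, and the median log2 change of all genes tested from the early to the late window was 0.49.

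Cytosolic and mitochondrial synthetase genes moved apart in the second part of the course. Late against early, DED81, WRS1, MES1 and CDC60 fell, 4 of 18 cytosolic or dual genes against 4.66% of all genes tested called lower. None was called higher. All 18 had a negative change and an adjusted p under 0.05 (lower with such a p, 14% of all genes), and their median change was -0.72. Of the 14 mitochondrial genes, SLM5 rose and none was called lower, beside 21.2% of all genes tested called higher. All 14 had a positive change, as did 4164 of the 5296 genes tested. Of the 14, 11 had an adjusted p under 0.05 (65.6% of all genes), and their median was 0.67.

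How the libraries were scaled bore on these directions. With each library centred on its median gene, the median of the cytosolic and dual genes was -1.22 and all 18 stayed negative, while the mitochondrial median was 0.17 and 8 of 14 were positive. With levels taken relative to reads outside ribosomal protein genes, the medians were -1.30 and 0.09, again with 8 of 14 mitochondrial genes positive. The 6 that turned negative were MSE1, ISM1, MSK1, MSM1, MST1 and MSY1. Centring changed the calls over all genes to 9.08% lower and 8.55% higher. The mitochondrial genes as a list thus stood close to the median gene, at 0.18 above it as deposited. With blank values set to 5 reads, the mitochondrial median was 0.46 beside 0.47 for all genes tested.

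**Figure D1:**
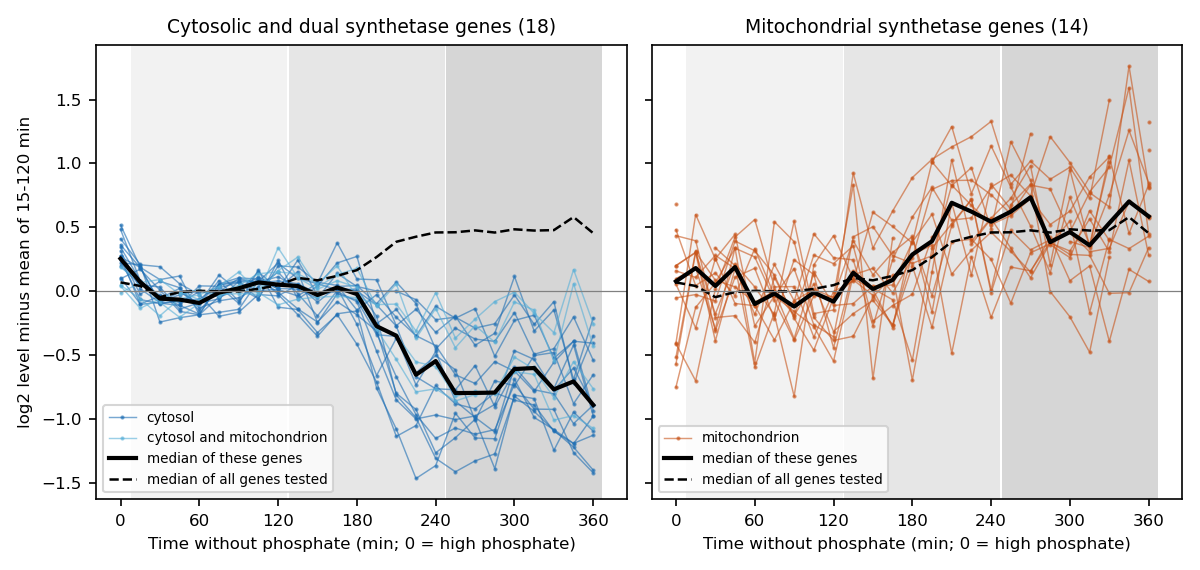
Each thin line is 1 gene and each point 1 library; the y axis is the log2 level minus the gene's mean over 15 to 120 min, the x axis is time in minutes, and the shading marks the early, middle and late windows. The heavy line is the median of the genes shown and the dashed line that of all genes tested. The cytosolic and dual median left 0 between 180 and 225 min and lay at -0.89 at 360 min, while the mitochondrial median lay at 0.58.

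Asparaginyl-tRNA synthetase DED81 had the largest decrease of the members late against early. Its level was 568.5 RPM at 0 min, 427.8 to 520 (median 469.3) in the early window, 189.1 to 474.6 (median 409.5) in the middle window and 175.9 to 265 (median 197.4) in the late window. All 8 late libraries lay below all 8 early ones. The fitted change was -1.22 (SE 0.10, adjusted p 6.3e-12 in limma), a 2.33-fold decrease. The middle window held the transition: DED81 had 474.6 RPM in the library of 180 min, 409.1 RPM in that of 195 min, 266.9 RPM in the next and 189.1 RPM by 240 min. At 300 min it stood at 265 RPM, above the other late libraries, and it was at 177.3 at 360 min.

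The tryptophanyl enzyme gene WRS1 was at 339.9 RPM at 0 min, 216.3 to 297.8 early (median 267.2) and 95.34 to 154.4 late (median 121.1), a change of -1.12 (SE 0.10, adjusted p 3.5e-11 in limma). For the methionyl enzyme gene MES1 the level was 388.2 RPM at 0 min, 252.3 to 309 early (median 261.9) and 118.6 to 168 late (median 125.9), a change of -1.12 (SE 0.11, adjusted p 1.0e-10 in limma). CDC60, whose product charges leucine tRNA and is also known as a leucine sensor upstream of TORC1, was at 260.6 RPM at 0 min, 181.2 to 220.9 early (median 208.7) and 78.34 to 116.8 late (median 99.19), a change of -1.09 (SE 0.09, adjusted p 4.1e-12 in limma). In each of these genes the late and early libraries did not overlap.

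GLN4, for glutamine, and ILS1, for isoleucine, had test statistics as strong but stayed short of the size threshold. GLN4 had 292.1 RPM at 0 min, 208.2 to 258.2 early (median 223.1) and 99.27 to 130.9 late (median 121.2), a change of -0.99 (SE 0.08, adjusted p 5.0e-12 in limma). ILS1 had 396.8 RPM at 0 min, 305.1 to 363.9 early (median 327.2) and 152.6 to 217.2 late (median 178.6), a change of -0.87 (SE 0.07, adjusted p 8.8e-12 in limma). Both sets of late libraries lay wholly below the early ones. The log2 change was -0.82 for the lysyl gene KRS1, -0.72 for the threonyl gene THS1 and for FRS1, and -0.67 for the seryl gene SES1. Smaller changes were those of the glutamyl gene GUS1 (-0.38), the tyrosyl gene TYS1 (-0.34), FRS2 (-0.30) and the aspartyl gene DPS1 (-0.28), and in these 4 the windows overlapped. FRS1 and FRS2 encode the 2 subunits of 1 cytosolic phenylalanyl enzyme. Their 0 min levels were 243.9 and 333.3 RPM, and their late medians 122.6 and 199 RPM.

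The 4 genes that supply both compartments spanned much of the cytosolic range. Valyl gene VAS1 had 292.1 RPM at 0 min, 273.7 to 314.1 early (median 294.9) and 140 to 190.6 late (median 165.3), with no overlap and a change of -0.89 (SE 0.07, adjusted p 2.0e-12 in limma). Glycyl gene GRS1 had 566 RPM at 0 min, 501.5 to 696.7 early (median 540.5) and 308.7 to 384.6 late (median 321.8), also with no overlap, and a change of -0.72 (SE 0.07, adjusted p 6.1e-11 in limma). In the other 2 the windows overlapped. Alanyl gene ALA1 had 307.9 RPM at 0 min, 260.4 to 332.6 early (median 294.7) and 203.5 to 309.9 late (median 236.4), a change of -0.29 (SE 0.08, adjusted p 0.0011 in limma). Histidyl gene HTS1 had 291.6 RPM at 0 min, 222.4 to 284.5 early (median 259) and 198.6 to 288.1 late (median 223.7), a change of -0.16 (SE 0.07, adjusted p 0.043 in limma), the smallest of the 18.

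In 12 of 18 cytosolic or dual genes every late library lay below every early one, against 6.51% of all genes tested. The 12 were DED81, WRS1, MES1, CDC60, GLN4, ILS1, KRS1, FRS1, SES1, THS1, VAS1 and GRS1. By structural class, the 8 class I genes of the cytosol or both had a median change of -0.94, with 3 called. The 10 class II genes had a median of -0.69, with 1 called, beside 4.66% of all genes called lower. The difference between the classes was not tested.

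**Figure D2:**
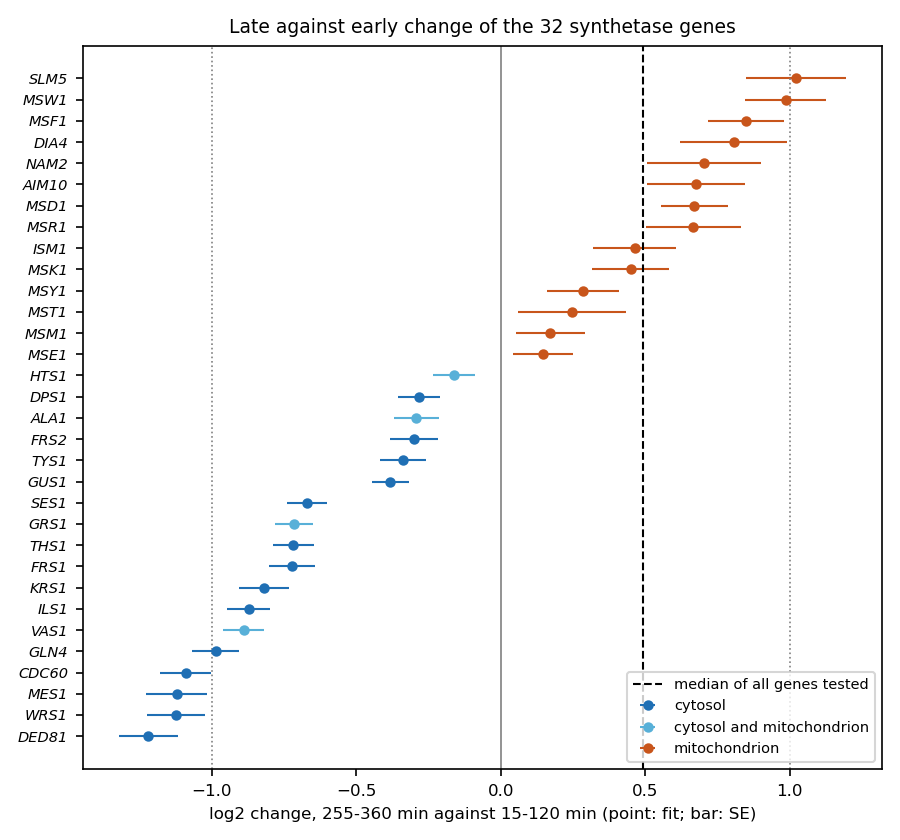
Points are the fitted log2 change of each of the 32 genes from 15 to 120 min to 255 to 360 min and bars are 1 SE on each side; colours give the compartment, the dashed line is the median of all genes tested and the dotted lines are the size threshold. All 18 cytosolic and dual genes lie at or below -0.16 and all 14 mitochondrial genes at or above 0.15, with 6 of the latter left of the dashed line.

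Among the mitochondrial genes SLM5, the asparaginyl partner of DED81, changed most late against early. It had 16.26 RPM at 0 min (32 reads), 6.693 to 14.79 early (median 9.124, 7 libraries, with 15 min blank), 12.77 to 25.4 in the middle window (median 19.94) and 16.74 to 28.51 late (median 19.81, 7 libraries, with 345 min blank). The late values lay above the early ones, while the 0 min value lay above the early range. SLM5 rose by 1.02 (SE 0.17, adjusted p 6.4e-06 in limma), at a median of 26 reads per library. That value sits just past the threshold, and the call was lost when the library of 60, 75, 105, 330 or 360 min was left out, with a lowest change of 0.90, or with either scaling above, a spline of 6 degrees of freedom or weights from reads.

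The tryptophanyl gene MSW1 had 20.83 RPM at 0 min, 15.38 to 27.38 early (median 18.85) and 27.33 to 60.53 late (median 38.5), a change of 0.99 (SE 0.14, adjusted p 2.8e-07 in limma). Its windows met at their edges only. The phenylalanyl gene MSF1 had 18.29 RPM at 0 min, 16.59 to 36.77 early (median 22.67) and 33.47 to 82.32 late (median 41.83), a change of 0.85 (SE 0.13, adjusted p 1.3e-06 in limma). Its highest value came from 345 min, the shallowest library. The aspartyl gene MSD1 had 37.09 RPM at 0 min, 20.74 to 33.47 early (median 26.64) and 36.32 to 55.05 late (median 42.43), a change of 0.67 (SE 0.12, adjusted p 7.3e-06 in limma), with no overlap of the windows but a 0 min level inside the late range.

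The other mitochondrial genes ranged from 0.81 for DIA4, a putative seryl enzyme, through NAM2 (leucyl, also needed for splicing of mitochondrial introns, 0.70), AIM10 (putative prolyl, 0.68), MSR1 (arginyl, 0.67), ISM1 (isoleucyl, 0.46), MSK1 (lysyl, 0.45) and MSY1 (tyrosyl, 0.28), all with adjusted p under 0.05. MST1 (threonyl, 0.25), MSM1 (methionyl, 0.17) and MSE1 (glutamyl, 0.15) had adjusted p of 0.23, 0.187 and 0.194 in limma. No overlap of late above early was seen in 3 of 14 mitochondrial genes (SLM5, MSD1 and MSR1), beside 36% of all genes tested. MSR1 was listed in 6 of the 8 late libraries. Counts behind these genes were low, with medians of 21 reads (NAM2) to 56 (MSD1) per library against 216 (CDC60) to 1104 (THS1) for the cytosolic and dual genes. Counting alone gives an SD of 0.19 to 0.31 on the log2 scale for the mitochondrial genes at those medians and 0.04 to 0.10 for the others. At 345 min 9 of the 14 mitochondrial genes were listed.

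Against the single high-phosphate library, no member was called in the early window, where 0.0383% of all genes were called lower and 0.0765% higher. At an unadjusted p under 0.05, MES1 (-0.50) and FRS2 (-0.48) were the 2 members found, beside 8.24% of all genes. The early change was negative in 17 of 18 cytosolic or dual genes, beside 3108 of 5228 genes tested. Their median was -0.24, and the median of the mitochondrial genes was -0.10. All these values share the 0 min library. Late against high phosphate, 8 of 18 cytosolic or dual genes fell, beside 6.85% of all genes: MES1 (-1.62), WRS1 (-1.52), DED81 (-1.49), CDC60 (-1.43), GLN4 (-1.33), ILS1 (-1.14), KRS1 (-1.04) and FRS1 (-1.01). Of the mitochondrial genes 3 of 14 rose, beside 21.1% of all genes: NAM2 by 1.44 (SE 0.42), MSF1 by 1.27 (SE 0.29) and AIM10 by 1.09 (SE 0.36). NAM2 had 12 reads at 0 min. SLM5, called late against early, was at 0.41 (SE 0.34) against high phosphate. The 2 scalings left NAM2 alone called higher when centred and none outside ribosomal protein genes, with 14 and 15 cytosolic or dual genes called lower. FRS1 was not called with the library of 270 or 345 min left out, with a spline of 6 degrees of freedom, or with array weights or weights from reads. AIM10 was not called without the library of 360 min or with blanks set to 5 reads, nor NAM2 with every second time point.

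Neither step between neighbouring windows reached the threshold for any member. Middle against early, 0 of 32 were called by limma (2.32% of all genes lower and 3.63% higher), with 18 at an unadjusted p under 0.05 beside 64.7% of all genes, and the medians were -0.25 for cytosolic and dual genes and 0.29 for mitochondrial ones. Late against middle, 0 of 32 were called (2.87% lower and 5.38% higher), with 23 at an unadjusted p under 0.05 beside 62.8% of all genes, and medians of -0.43 and 0.25. Any change over the 24 libraries without phosphate was called in 6 of 18 cytosolic or dual genes (DED81, GLN4, CDC60, KRS1, MES1 and WRS1) and 4 of 14 mitochondrial genes (SLM5, NAM2, MSF1 and MSW1), beside 42% of all genes tested. Under the 2 scalings the mitochondrial count was 0 and the cytosolic and dual counts 14 and 15.

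Library by library, the median of the 18 cytosolic and dual genes relative to the early mean was -0.02, -0.27, -0.35 and -0.66 in the libraries of 180, 195, 210 and 225 min. The median of the mitochondrial genes was 0.29, 0.39, 0.69 and 0.62 at the same times, and that of all genes tested 0.16, 0.27, 0.39 and 0.43. Ribosomal protein genes went from 25.8% of reads at 180 min to 7.88% at 225 min. The fitted curves of the cytosolic and dual genes passed the midpoint between the early and late levels at 166 min (GLN4) to 254 min (DPS1), with a median of 211 min, and those of the mitochondrial genes at 135 min (AIM10) to 229 min (MSM1), with a median of 182 min. These times are a description of a smooth curve with 1 library per time. They include HTS1, ISM1, MSM1, MST1 and MSY1, whose change over the 24 libraries had adjusted p of 0.10, 0.063, 0.26, 0.41 and 0.16 in limma. Whether the 2 groups differ in timing was not tested.

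As a sum, the 18 cytosolic and dual genes held 7797 RPM at 0 min, 6351 to 7140 early (median 6687) and 3841 to 4855 late (median 4137). The highest late sum was that of 300 min. The 14 mitochondrial genes held 301.8 RPM at 0 min, 277.9 to 343.8 early (median 302.7) and 400.9 to 464 late (median 432). Late and early sums did not overlap in either set, and their ratio went from 18.75 to 25.7 early to 8.277 to 11.54 late. Of all genes tested, taken singly, 6.51% had every late library below every early one and 36% the reverse. The median log2 change of all genes was 0.49. Blanks add nothing to a sum, so the mitochondrial sum of 345 min (401.9 RPM) covers 9 of the 14 genes. Per kilobase of gene, the level of the median cytosolic or dual gene at 0 min was 198 RPM and that of the median mitochondrial gene 12.55 RPM. KRS1 (546.4), THS1 (451.8) and DED81 (341.5 RPM per kilobase) were highest at 0 min, CDC60 (79.63) was lowest of the cytosolic and dual set, and the mitochondrial genes ran from 2.271 (NAM2) to 23.02 (MSE1).

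For 12 amino acids a cytosolic and a mitochondrial gene among the members could be set side by side. No scaling of libraries can alter such a ratio within a library. All 13 such ratios were lower on average late than early, by 0.49 to 2.22 on the log2 scale with a median of 1.24, and in 9 the late ratios lay wholly below the early ones. Relative to the median change of all genes tested, the median was -1.26 for the 14 cytosolic genes and 0.18 for the 14 mitochondrial ones. Most of the decrease thus lay on the cytosolic side, and ratios of the cytosolic genes to other genes were not computed. DED81/SLM5 stood at 34.97 at 0 min, 30.59 to 63.92 early (median 49.42, 7 libraries) and 7 to 14.58 late (median 9.739, 7 libraries), a 4.67-fold decrease. WRS1/MSW1 stood at 16.32 at 0 min, 9.034 to 18 early (median 12.26) and 1.76 to 3.923 late (median 3.456), a 4.07-fold decrease. CDC60/NAM2 stood at 42.75 at 0 min, 14.67 to 28.12 early (median 21.19) and 4.19 to 8.667 late (median 6.84), a 3.26-fold decrease. Among these 12 amino acids, the RNA levels of the paired genes thus diverged most for asparagine, tryptophan and leucine from the early to the late window. Set against the single 0 min library, the order differs, with a larger decrease for CDC60/NAM2 than for DED81/SLM5. SLM5 and NAM2 had medians of only 26 and 21 reads per library, and differences between the ratios were not tested. Proline and arginine were not paired, because their cytosolic genes, YHR020W and YDR341C, are not members, so the ranking does not cover them.

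The decrease was 2.90-fold for FRS1/MSF1, 2.68-fold for SES1/DIA4, 2.46-fold for ILS1/ISM1, 2.37-fold for MES1/MSM1, 2.32-fold for KRS1/MSK1 and 1.98-fold for DPS1/MSD1, all without overlap. It was 2.16-fold for FRS2/MSF1, 1.97-fold for THS1/MST1, 1.51-fold for TYS1/MSY1 and 1.41-fold for GUS1/MSE1, with windows that overlapped. GUS1/MSE1 changed least, from 13.26 to 17.52 early (median 15.65) to 8.619 to 14.6 late (median 10.29). The 2 phenylalanyl ratios share MSF1 and are not separate observations of it.

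**Figure D3:**
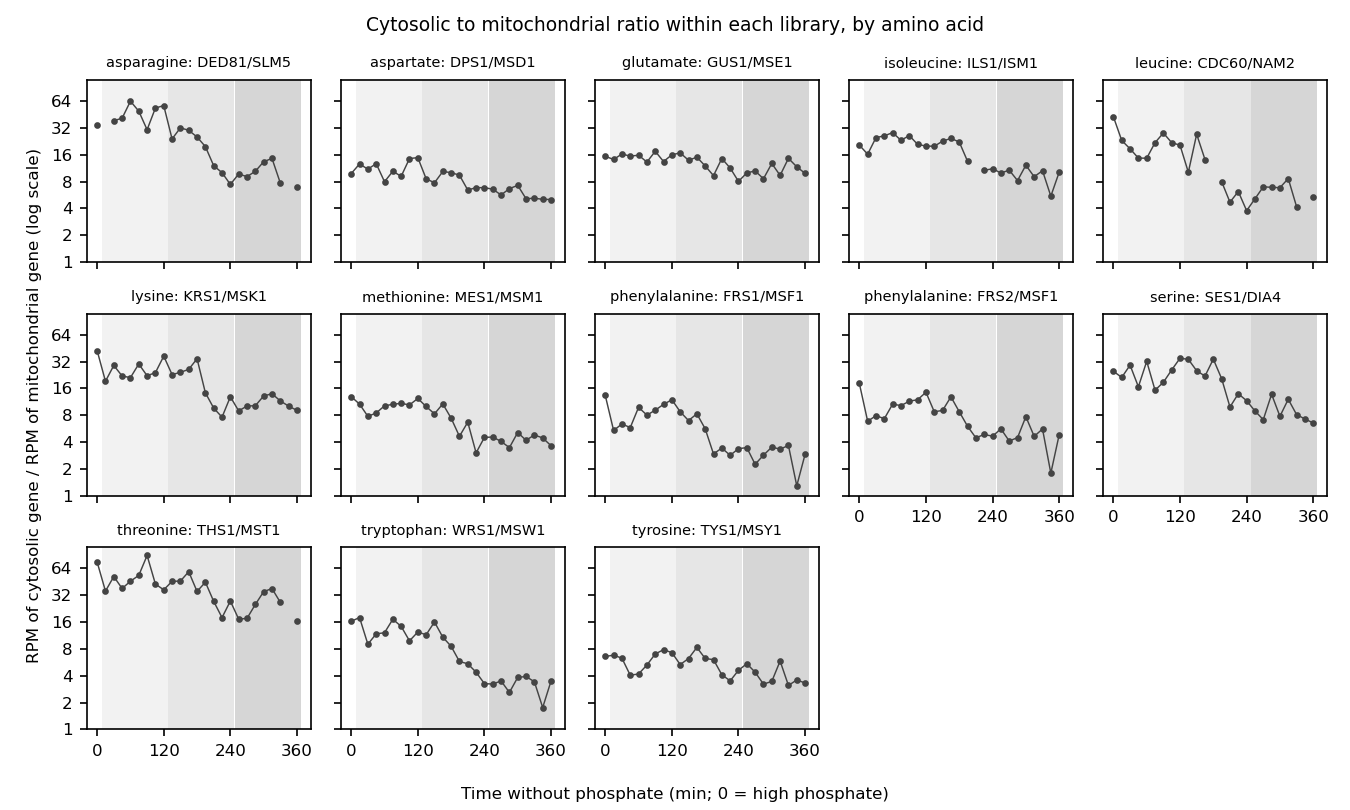
Each panel gives, for 1 amino acid, the ratio of the RPM of the cytosolic gene to that of the mitochondrial gene in every library (y axis, log scale) against time in minutes (x axis), with the 3 windows shaded and libraries with a blank left out. DED81/SLM5, CDC60/NAM2 and WRS1/MSW1 go down most from the early to the late window, and GUS1/MSE1 stays within 8.05 and 17.5 throughout.

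Within the 24 libraries without phosphate, the levels of the cytosolic and dual genes ran alike: Pearson's r between 2 of them had a median of 0.77 over 153 pairs, with a range of 0.15 to 0.97. Mitochondrial genes had a median r of 0.44 over 91 pairs (-0.08 to 0.81), and cytosolic or dual genes against mitochondrial ones a median of -0.55 over 252 pairs (-0.84 to 0.02). The points share libraries, depth and the course of time, and the lower reads of the mitochondrial genes add scatter.

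DED81 lies back to back with YHR020W, the cytosolic prolyl-tRNA synthetase gene, on chromosome VIII (R64): DED81 at 141894 to 143558 on the minus strand and YHR020W at 143996 to 146062 on the plus strand, with 437 bases and no annotated gene between them. YHR020W, not among the 32 but the member of the related list with the largest test statistic, had 312.5 RPM at 0 min, 272 to 317.9 early (median 286.6), 82.12 to 247 in the middle window (median 197) and 62.95 to 113.4 late (median 79.99). The gene fell, with a log2 change of -1.87 (SE 0.12, limma adjusted p 2.6e-14), a larger decrease than that of any of the 32 in the same comparison. Late and early libraries did not overlap, and the highest late value was that of 300 min, as in DED81 and 10 other cytosolic or dual genes.

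**Figure D4:**
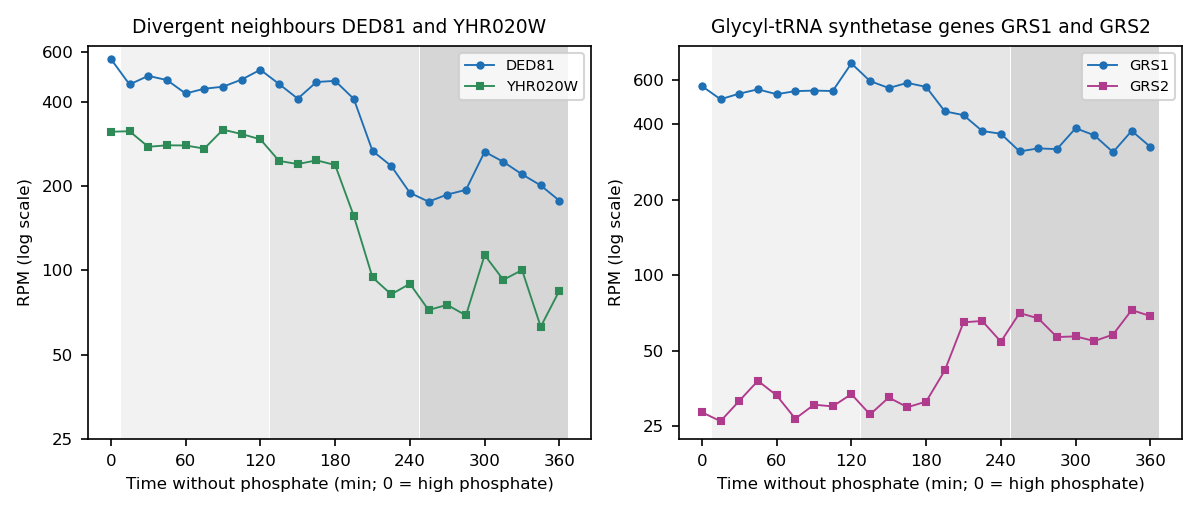
RPM in every library (y axis, log scale) against time in minutes (x axis) for the divergent neighbours DED81 and YHR020W and for the glycyl genes GRS1 and GRS2, with the 3 windows shaded. YHR020W lies below its early range from 135 min on, and DED81 below its own at 150 min and from 195 min on. Both have their highest late value at 300 min, as do 10 other cytosolic or dual genes. GRS1 goes down to a late median of 321.8 RPM while GRS2 goes up to 62.64 RPM.

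Promoter windows, from 250 bases before to 50 after the A of the annotated start codon, were read from the RefSeq R64 genome and searched on both strands for TGACTC (the core recognised by Gcn4), GATGAG (the PAC element of ribosome assembly genes), AAAATTTT (the RRPE core), AGGGG (the stress element bound by Msn2 and Msn4) and CACGTG (the core bound by Pho4 and others). The 5 windows shown begin with the divergent pair DED81 and YHR020W, both lower late than early. WRS1 and VAS1 follow as cytosolic and dual genes with a strong test statistic, then SLM5, the member that rose late against early. CDC60, GLN4 and ILS1 had larger statistics than WRS1 and are not shown. The windows shown of genes lower late than early all hold a marked motif, while those of CDC60 and MES1 hold none. Capitals mark the Gcn4 core, the PAC element and the RRPE core on either strand, and each line reads 5′ to 3′ on the strand of its gene.
DED81, R64 chrVIII:143509-143808, minus strand: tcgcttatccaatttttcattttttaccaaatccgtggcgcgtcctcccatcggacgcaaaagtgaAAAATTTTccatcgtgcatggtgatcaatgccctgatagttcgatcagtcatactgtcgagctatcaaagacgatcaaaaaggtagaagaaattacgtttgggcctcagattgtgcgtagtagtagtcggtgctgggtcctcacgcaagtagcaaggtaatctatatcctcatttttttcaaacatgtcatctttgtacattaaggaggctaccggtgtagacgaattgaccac
YHR020W, R64 chrVIII:143746-144045, plus strand: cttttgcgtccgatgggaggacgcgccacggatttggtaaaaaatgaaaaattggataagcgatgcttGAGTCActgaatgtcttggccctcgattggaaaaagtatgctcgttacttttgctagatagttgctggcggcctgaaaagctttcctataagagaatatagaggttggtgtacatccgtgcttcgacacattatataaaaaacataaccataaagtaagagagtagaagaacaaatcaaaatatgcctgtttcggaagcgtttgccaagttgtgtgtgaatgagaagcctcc
WRS1, R64 chrXV:137776-138075, minus strand: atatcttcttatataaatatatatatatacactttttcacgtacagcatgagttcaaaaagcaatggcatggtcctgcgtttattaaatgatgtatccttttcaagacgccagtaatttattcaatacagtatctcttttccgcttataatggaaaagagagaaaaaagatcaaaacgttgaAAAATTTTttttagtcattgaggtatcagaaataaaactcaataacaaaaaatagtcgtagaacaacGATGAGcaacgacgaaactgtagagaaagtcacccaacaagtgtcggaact
VAS1, R64 chrVII:671936-672235, plus strand: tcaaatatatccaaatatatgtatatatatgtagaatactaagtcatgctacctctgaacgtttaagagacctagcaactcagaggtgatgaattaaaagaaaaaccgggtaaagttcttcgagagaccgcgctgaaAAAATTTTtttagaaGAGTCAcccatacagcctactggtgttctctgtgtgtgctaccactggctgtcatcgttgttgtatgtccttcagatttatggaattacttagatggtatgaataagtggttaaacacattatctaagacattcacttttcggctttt
SLM5, R64 chrIII:162173-162472, minus strand: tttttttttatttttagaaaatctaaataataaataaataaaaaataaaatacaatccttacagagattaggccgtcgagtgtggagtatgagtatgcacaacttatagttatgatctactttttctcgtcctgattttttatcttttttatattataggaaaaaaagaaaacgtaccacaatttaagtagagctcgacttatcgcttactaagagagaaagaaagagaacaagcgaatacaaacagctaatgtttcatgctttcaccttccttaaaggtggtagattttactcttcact

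The DED81 window holds AAAATTTT 184 bases before its start, and the YHR020W window holds TGACTC, on the reverse strand, 182 bases before its own. Both sites lie in the 437 bases between these neighbours, and each falls just outside the other gene's window. The windows of this pair differ in these motifs because of where they end, and both sites lie upstream of both genes. VAS1 has AAAATTTT at 113 and TGACTC, on the reverse strand, at 98 bases before the start. WRS1 has AAAATTTT at 68, and in it GATGAG runs across the start codon. The SLM5 window holds none of the 5 motifs. AAAATTTT was present in 10 of 18 cytosolic or dual windows (DED81, GRS1, ILS1, FRS1, FRS2, SES1, THS1, WRS1, TYS1 and VAS1) and 0 of 14 mitochondrial ones, beside 9% of 6020 promoters of the same length. TGACTC was present in 6 of 18 (ALA1, GLN4, ILS1, KRS1, THS1 and VAS1) and 0 of 14, beside 7.96%, and in GLN4 it lies inside the coding sequence. GATGAG was present in 5 of 18 (ALA1, DPS1, GUS1, THS1 and WRS1) and 1 of 14 (MSE1), beside 20.3%, and in THS1, as in WRS1, it runs across the start codon. AGGGG was in 1 of 18 (FRS2) and 4 of 14 (NAM2, MSK1, AIM10 and DIA4), beside 21.6%, and CACGTG in 1 of 18 (SES1) and 1 of 14 (MSW1), beside 2.91%. CDC60 and MES1, both called lower, hold none of the 5 motifs in this window. A match is a stretch of letters and not a measured binding site.

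The remaining genes of tRNA charging were taken as lists. Of 10 cytosolic partners tested, 2 fell late against early and 1 rose, beside 4.66% and 21.2% of all genes, and the list's median was -0.40 beside 0.49 for all genes. YHR020W and YDR341C, the cytosolic arginyl gene, fell, the latter by 1.05 (SE 0.11, adjusted p 5.2e-10 in limma), or by 0.98 with a spline of 6 degrees of freedom and 0.97 with array weights, where it was not called. GRS2, the second glycyl gene, rose by 1.08 (SE 0.12, adjusted p 2.2e-09 in limma), and is named here after its values were seen. The change of GRS2 was 0.58 with libraries centred on their median and 0.50 relative to reads outside ribosomal protein genes, so the call was lost there, as it was with array weights at 0.99. GRS2 had 28.45 RPM at 0 min, 26.21 to 37.95 early (median 31.03) and 54.62 to 72.63 late (median 62.64). The ratio of GRS1 to GRS2 within a library was 19.89 at 0 min, 14.47 to 20.74 early (median 17.91) and 4.4 to 6.743 late (median 5.244), without overlap. The recovered reads of GRS2 were not whole in 36% of libraries, and those of GRS1 in 0%. Where the fractional reads of GRS2 come from was not tested, and they could enter its level. The cysteinyl gene YNL247W was at -0.54, ARC1, a cofactor that binds the methionyl and glutamyl enzymes, at -0.34, and LOS1, a tRNA exporter, at -0.84.

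In mitochondria, glutaminyl-tRNA is made by amidation of glutamyl-tRNA, and 0 of 5 tested mitochondrial charging partners were called by limma late against early, with all 5 at an unadjusted p under 0.05, beside 80.9% of all genes. Their median change was 0.64, beside 0.49 for all genes. PET112 was at 0.83 (SE 0.18, adjusted p 1.6e-04) and HER2 at 0.64 (SE 0.15, adjusted p 2.8e-04), both subunits of the amidating enzyme. Of 8 mitochondrial translation factors 1 was called higher, beside 21.2% of all genes. MEF2, an elongation factor homologue, rose by 1.47 (SE 0.12, adjusted p 8.7e-12 in limma). Its change was 0.97 when centred and 0.89 outside ribosomal protein genes, both short of the threshold. The list's median was 0.54, near that of all genes, with AIM23, an initiation factor, at 0.86 (SE 0.15). Of 73 mitochondrial ribosomal protein genes 2 were called higher, beside 21.2% of all genes, and their median of 0.31 lay 0.18 below that of all genes.

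On the cytosolic side, 4 of 9 elongation factor genes tested fell (TEF1, TEF2, EFT2 and YEF3), beside 4.66% of all genes. The list's median was -0.59, and CAM1 alone had a positive change, of 0.74 (SE 0.05, adjusted p 1.5e-13 in limma), beside a median of 0.49 for all genes. CAM1 was short of the size threshold and is named here after its values were seen. Its recovered reads were not whole in 64% of libraries, the source of which was not tested. The change of CAM1 under the 2 scalings was not examined. TEF2 fell by 1.29 (SE 0.06, adjusted p 2.1e-17 in limma) and EFT2 by 1.77 (SE 0.09, adjusted p 5.5e-17 in limma), and each has a near-identical copy, so the split between copies is uncertain. Of 138 cytosolic ribosomal protein genes 136 fell, beside the same 4.66% of all genes. Their median was -3.06, a decrease larger than that of any synthetase gene on the same scale. Among 6 genes that sense uncharged tRNA and act downstream of it, 0 were called by limma late against early and all 6 had an unadjusted p under 0.05, again beside 80.9% of all genes. GCN2, the kinase, was at 0.88 (SE 0.09, adjusted p 1.8e-09) and GCN4 at 0.39 (SE 0.06, adjusted p 8.3e-07), the latter at -0.11 and -0.19 under the 2 scalings. Gcn4 is regulated mainly in translation, which these libraries do not measure.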

How the data were processed

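RNA was sequenced from 25 samples of yeast labelled Δvip1. The labels do not say whether they came from 1 culture. The deposited values are log2 RPM, as the authors' table holds them (each library's antilogs sum to 1000000). The submitters' processing notes name Bowtie and build R64. For the assignment of reads to genes, the annotation and the use of strand, nothing is given in the sources used here. With the lowest value of each library read as 10 reads, 96.4% of low values were whole within 0.01 reads, which gave the depths. Rows without a gene name (51) held no values.

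Genes listed in at least 13 libraries and 3 per window were tested with limma 3.58.1 in R 4.3.3 on the deposited log2 values, without pseudocount, with a variance trend, an indicator for 0 min and a natural cubic spline of 4 degrees of freedom. Benjamini-Hochberg adjustment ran over all 5296 genes (5228 with a 0 min value). SE is that of the fit. The procedure was tested on simulated data. Count tests on recovered reads were not run, because values under 10 reads are blank. By rule, full statistics were given for the 4 members per compartment with the largest late against early statistic, for called mitochondrial genes, and for the 2 such genes per list. WRS1 and MES1, both called late against early, were added after their values were seen. The members, lists, windows and motifs were chosen with earlier results of these data known. Names were matched to RefSeq R64. Alternatives are described at the end. Figures used Python 3.11.15 and matplotlib 3.10.9.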

Additional observations from a re-analysis of the deposited data

How the results depend on the processing

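No paired analysis was possible because each time point has 1 library and its own group. Numbers below are genes called, cytosolic or dual lower and mitochondrial higher, unless said otherwise. Late against early (4 and 1 as reported), centring each library on its median gave 12 and 0, scaling to reads outside ribosomal protein genes 12 and 0, a minimum log2 change of 0.58 12 and 8, and adjusted p alone 18 and 11. The mitochondrial count was 0 with a spline of 6 degrees of freedom or weights from reads, 2 with every second time point, and 0 to 2 with 1 time point left out (0 without 60, 75 or 330 min, 2 without 30, 120, 270 or 315 min). For middle against early (0 and 0) the 0.58 minimum gave 2 and 3, adjusted p alone 11 and 7, and blanks set to 5 reads 0 and 1. For late against middle (0 and 0) both scalings gave 2 and 0, the 0.58 minimum 4 and 1, and adjusted p alone 17 and 5. Late against high phosphate (8 and 3) became 14 and 1 when centred, 15 and 0 outside ribosomal protein genes, 14 and 5 at the 0.58 minimum and 16 and 5 with adjusted p alone. Change over time (6 and 4) became 14 and 0 when centred, 15 and 0 outside ribosomal protein genes, 13 and 9 at the 0.58 minimum, 17 and 10 with adjusted p alone, and window means gave 1 mitochondrial gene. The cause of these shifts was not tested apart from the thresholds and scalings that define them. Reversed late against early values, centred and then outside ribosomal protein genes, were -0.35 and -0.43 for MSE1, -0.034 and -0.12 for ISM1, -0.048 and -0.13 for MSK1, -0.33 and -0.41 for MSM1, -0.24 and -0.33 for MST1, -0.21 and -0.29 for MSY1, and -0.11 and -0.19 for GCN4. DED81, CDC60, MES1 and WRS1 were called late against early under every setting run, each time point left out included, and no member was called against its group's direction under any of them. Weights from reads, blanks at 5 reads and adjusted p alone were added after the data were seen. Depth limits the mitochondrial genes most, with medians of 21 to 56 reads. With 1 library per time there is no replicate at any time, no library labelled wild type to compare with, and RPM are shares of a library whose composition changed.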
